A study of Mus musculus with 10 samples.

Results

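The 35 genes described here mark the endothelium of the heart. They were chosen by symbol, as genes known for the endothelial lining of vessels, lymphatics and the cardiac chambers, and all 35 were found among 57185 genes with counts. Each had between 132 and 16343 raw counts in every mouse, so that all 35 also passed the filter on low counts, which left 13453 genes for the test. RNA of the apical part of the ventricles, labelled heart, left ventricle, was sequenced from 5 MLPKO and 5 MLPKO-cRADKO mice, 1 library per mouse, after enrichment for polyadenylated transcripts. All 10 mice were male, lacked muscle LIM protein (MLP, the product of *Csrp3*), a state that gives dilated cardiomyopathy in mice, and carried floxed alleles of *Rrad*, which encodes RAD, an inhibitor of the L-type calcium channel. MLPKO-cRADKO mice carried in addition the MYH6_MerCreMer transgene, a tamoxifen-inducible Cre driven by a cardiomyocyte promoter, so that RAD was meant to be lost from cardiomyocytes and not from the endothelium. Tamoxifen was injected once into the peritoneum in both groups when the mice were 10 weeks old, at 100 mg/kg, and hearts were collected 1 month later. The labels give 16 weeks as the age, which is more than 1 month after the injection, and this difference was not settled. The MLPKO mice had no Cre, so that the effects of the active Cre and of the lost RAD cannot be told apart.

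The endothelium lines every vessel and the inner face of the heart, and in the ventricle most of it is capillary that lies against cardiomyocytes and hands them oxygen and fatty acids. Its cells are kept in number and in a quiet state by ligands from their neighbours: VEGF acts through KDR and FLT1, angiopoietin through TEK with its partner TIE1, apelin through APLNR and sphingosine 1-phosphate through S1PR1. Vascular identity is set by transcription factors of the ETS family, such as ERG, and of the SOXF family, and DLL4 and NOTCH4 act in Notch signalling between endothelial cells.

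Library totals were between 33457406 and 49965101 counts. *Rrad* had 5714 to 11522 normalized counts in MLPKO and 5504 to 8274 in MLPKO-cRADKO, with a log2 fold change of −0.38 (standard error, SE, 0.20, with an edgeR adjusted p of 0.29), and the groups overlapped. Since this count covers the whole gene and every cell type of the tissue, it does not check the genotype label. *Csrp3* had 41289 to 133383 normalized counts in MLPKO and 28254 to 48153 in MLPKO-cRADKO, with overlap. Its log2 fold change was −1.08 (SE 0.29, edgeR adjusted p = 0.0667, DESeq2 adjusted p = 0.0362). Transcripts of *Csrp3* were thus counted in all 10 mice although these lacked its protein, and the cause was not tested. A normalized count is the raw count scaled to a common library of 40905432 counts by TMM. A log2 fold change is the value in MLPKO-cRADKO over that in MLPKO, and a gene was called where the quasi-likelihood test of edgeR gave a Benjamini-Hochberg adjusted p under 0.05 over all 13453 genes, with 5 mice in each group.

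Levels were compared between genes as CPM (counts per 1000000 of the TMM-scaled library) per kilobase of exon. The length joined all annotated exons of a gene over its transcripts, and the order holds only for this length. For *Fabp4* it was 4953 bases, which is the whole annotated gene, against 2976 for *Aqp1*. The level of *Fabp4* may thus be too low, and its place behind *Aqp1* is not secure. Among the 35 genes, *Aqp1*, the water channel, had the highest level at 102 ± 14.9 (SD over 10 mice), ahead of *Fabp4*, a fatty acid binding protein of capillaries, at 64.8 ± 9.01, and of *Cdh5*, the cadherin of endothelial junctions, at 47.1 ± 4.42. The ranges of neighbours in this order overlapped over the 10 mice for every pair except *Cdh5* and *Kdr*. *Kdr*, the main VEGF receptor, followed at 27.9 ± 3.53, so that the lowest *Cdh5* level (40.0) lay above the highest *Kdr* level (34.4). *Sox18* (27.6), *Ly6c1* (26.3) and *Eng* (25.7) stood next to *Kdr*. *Tek* (9.57) and *Mmrn2* (9.02) were adjacent in the lower part of the order, and *Sox17* (1.68) and *Tal1* (0.941) were the lowest. *Pecam1*, *Cdh5*, *Kdr*, *Tek*, *Tie1* and *Erg*, which define the cell type, were thus present in each library.

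Most of the endothelial genes had a somewhat higher value in MLPKO-cRADKO than in MLPKO hearts. The log2 fold change was positive in 31 of 35 genes (88.6%) and negative in 4, with a median of 0.19 and quartiles of 0.05 and 0.24. Over all 13453 genes it was positive in 52.1%, with a median of 0.01 and quartiles of −0.12 and 0.15. Only 2 of the 35 genes were called, both higher: *Tek*, the angiopoietin receptor, and *Mmrn2*, a glycoprotein of the endothelial matrix. None was called lower. Among all genes, 0.944% were called higher and 1.8% lower, and 2.74% in either direction. Without adjustment 15 of the 35 had a p under 0.05, all higher, where 10.1% of all genes were higher and 11.5% lower at that level. DESeq2 called 6 of the 35, all higher (*Kdr*, *Tek*, *Tie1*, *Erg*, *Fabp4* and *Mmrn2*), against 3.81% of all genes called higher by that tool. In 4 genes (*Tek*, *Mmrn2*, *Kdr* and *S1pr1*) every MLPKO-cRADKO mouse lay above every MLPKO mouse, which was so for 2.64% of all genes. The groups of a gene were apart in the other direction for 3.98% of all genes, and in either for 6.62%. Except in *Tek*, the lowest MLPKO-cRADKO mouse lay only just above the highest MLPKO mouse. In normalized counts this was 10299 over 10295 in *Kdr*, 2607 over 2604 in *Mmrn2* and 2141 over 2134 in *S1pr1*. In a bulk sample, more endothelial cells, more RNA of these genes per cell and less RNA of other cells cannot be told apart.

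**Figure D1:**
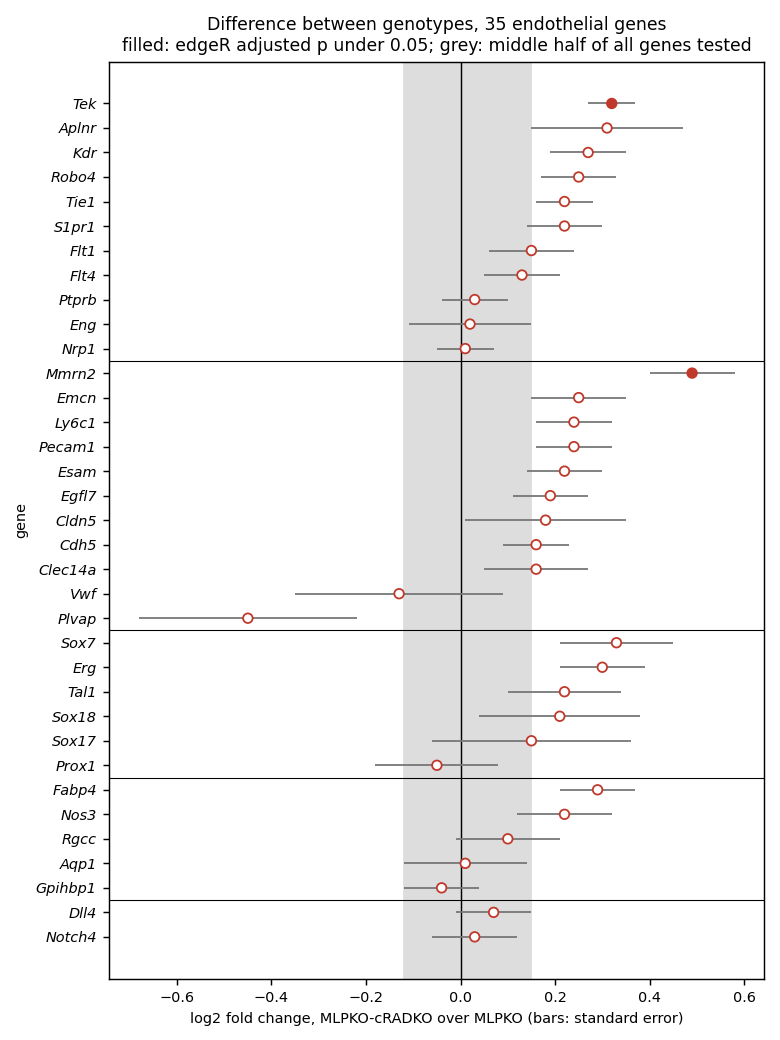
Log2 fold change (MLPKO-cRADKO over MLPKO) of the 35 endothelial genes, grouped from top to bottom as receptors, junction and surface proteins, transcription factors, transport and metabolism, and Notch, with bars for the standard error. Filled points are *Tek* and *Mmrn2*, the genes called by edgeR, and the grey band spans the quartiles of all 13453 genes (−0.12 to 0.15), above which lie most receptors and junction genes.

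The receptor group held 11 genes, all with a positive log2 fold change (median 0.22). *Tek* had 1989, 2147, 2115, 2217 and 2003 normalized counts in MLPKO mice 1 to 5 and 2644, 2506, 2706, 2710 and 2464 in MLPKO-cRADKO mice 1 to 5. The lowest MLPKO-cRADKO mouse was thus above the highest MLPKO mouse, and the spread within each group was small (SD 96.8 and 115). *Tek* rose by a log2 fold change of 0.32 (SE 0.05), to 124% of the MLPKO mean, with an edgeR adjusted p of 0.0196 and a DESeq2 adjusted p of 1.17e-05. The log2 fold change stayed between 0.30 and 0.34 with any 1 mouse left out, and the call was lost only without MLPKO mouse 5 (edgeR adjusted p = 0.0546). Without that mouse 0.0892% of all genes were called higher.

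*Kdr*, the receptor through which VEGF drives growth and permeability, had 9236, 10295, 9387, 8732 and 9966 normalized counts in the MLPKO mice and 10671, 12944, 12275, 10299 and 11093 in the MLPKO-cRADKO mice. The groups touched but did not overlap, since MLPKO-cRADKO mouse 4 lay just above MLPKO mouse 2. The log2 fold change was 0.27 (SE 0.08), and it did not pass the edgeR threshold (adjusted p = 0.0728) but passed in DESeq2 (adjusted p = 0.0183) and in edgeR with library totals only (adjusted p = 0.0445). *S1pr1*, the receptor that tightens the endothelial barrier, had 1984, 2134, 1982, 1928 and 1956 normalized counts in MLPKO and 2169, 2312, 2141, 2823 and 2197 in MLPKO-cRADKO. One MLPKO-cRADKO mouse, number 4, stood well above the other 4, and the log2 fold change was 0.22 (SE 0.08, edgeR adjusted p = 0.124).

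*Tie1*, the partner of TEK, had 3189 to 3815 normalized counts in MLPKO and 3780 to 4280 in MLPKO-cRADKO (log2 fold change 0.22, SE 0.06, edgeR adjusted p = 0.0728), with an overlap between MLPKO mouse 3 and MLPKO-cRADKO mouse 2 only. *Robo4*, a guidance receptor that steadies vessels, had 1103 to 1407 and 1355 to 1594 normalized counts and a log2 fold change of 0.25 (edgeR adjusted p = 0.0926), and *Aplnr*, the apelin receptor, of 0.31 (edgeR adjusted p = 0.282), with a wide spread in both groups (1239 to 1956 and 1541 to 2550 normalized counts). The other VEGF receptors were nearer to 0. *Flt1*, which binds VEGF without strong signalling, had 4954 to 6947 normalized counts in MLPKO and 5815 to 6983 in MLPKO-cRADKO (log2 fold change 0.15, edgeR adjusted p = 0.345). *Flt4*, the VEGF-C receptor of lymphatics, had 918 to 1126 and 953 to 1299 (log2 fold change 0.13, edgeR adjusted p = 0.392). The groups overlapped in both genes. *Ptprb*, the phosphatase that acts on TEK and VE-cadherin, had 6219 to 8149 and 7573 to 8038 normalized counts, and *Nrp1*, a co-receptor for VEGF and semaphorins, had 4223 to 5166 and 4542 to 5101. The log2 fold changes of *Ptprb* (0.03), *Nrp1* (0.01) and *Eng* (0.02), a co-receptor for BMP9, were close to 0. *Eng* shows how far 1 mouse can set such a value. It had 7264, 11582, 6801, 7071 and 7967 normalized counts in MLPKO and 8108, 8145, 8363, 8166 and 8359 in MLPKO-cRADKO, and without MLPKO mouse 2 its log2 fold change was 0.18.

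**Figure D2:**
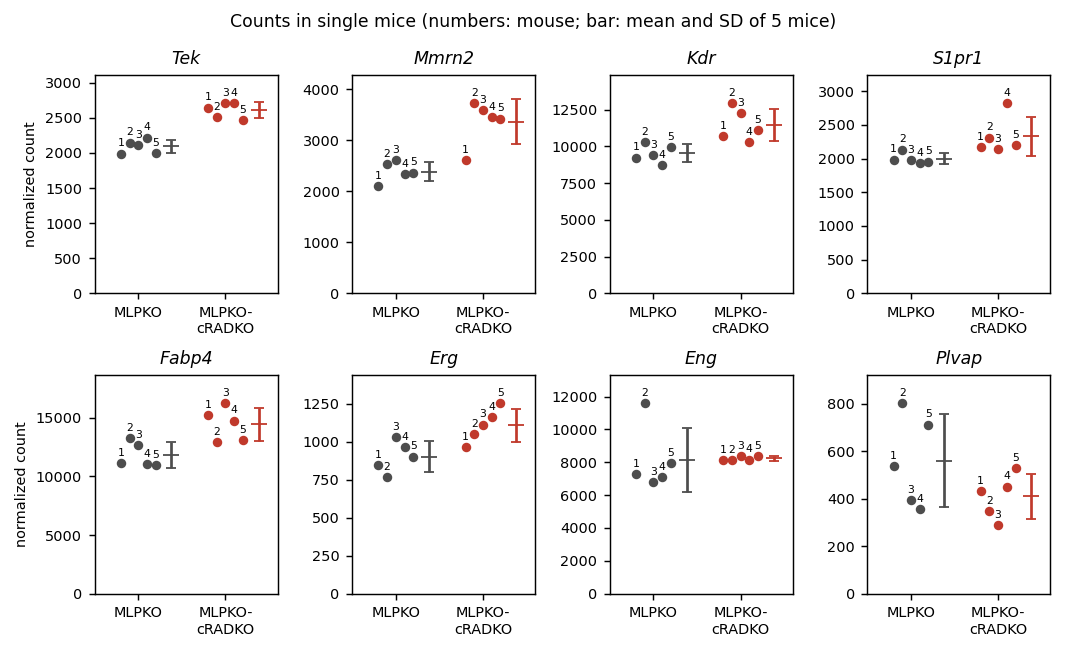
Normalized counts (linear axis from 0) of 8 endothelial genes in single mice, numbered 1 to 5 within each group, with the mean and SD of 5 mice beside them. *Tek*, *Mmrn2*, *Kdr* and *S1pr1* show no overlap between MLPKO and MLPKO-cRADKO, while *Fabp4*, *Erg*, *Eng* and *Plvap* overlap and MLPKO mouse 2 stands apart in *Eng* (11582).

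Of the 11 junction and surface genes, 9 had a positive and 2 a negative log2 fold change (median 0.19). *Mmrn2*, whose protein binds CLEC14A on the endothelial surface, had 2107, 2533, 2604, 2330 and 2365 normalized counts in MLPKO and 2607, 3729, 3594, 3453 and 3424 in MLPKO-cRADKO. Its groups were barely apart, as MLPKO-cRADKO mouse 1 lay beside MLPKO mouse 3, while the other 4 MLPKO-cRADKO mice were far above. *Mmrn2* rose by a log2 fold change of 0.49 (SE 0.09), to 141% of the MLPKO mean (edgeR adjusted p = 0.0257, DESeq2 adjusted p = 0.000212). The log2 fold change lay between 0.45 and 0.57 with any 1 mouse left out. The call was less steady, with edgeR adjusted p values between 0.0113 and 0.0684, and it was lost without MLPKO mouse 1 (0.0601) or 5 (0.0673) or without MLPKO-cRADKO mouse 2 (0.0543), 3 (0.0605), 4 (0.0594) or 5 (0.0684). Exons of *Mmrn2* overlap those of *Sncg* on the opposite strand. *Sncg* had 204 to 286 normalized counts in MLPKO and 294 to 485 in MLPKO-cRADKO (log2 fold change 0.53, edgeR adjusted p = 0.078), and the strand setting of the counting was not given, so that reads of the pair may not be told apart.

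The genes that build the junctions had smaller values. *Pecam1*, an adhesion molecule of the junctions, had 4918, 6609, 6127, 5546 and 5748 normalized counts in MLPKO and 6252, 6882, 7517, 6785 and 6710 in MLPKO-cRADKO (log2 fold change 0.24, SE 0.08, edgeR adjusted p = 0.112). Its groups overlapped only because MLPKO mouse 2 lay above MLPKO-cRADKO mouse 1. *Esam*, another adhesion molecule, had 1542 to 1867 and 1712 to 2135 normalized counts (log2 fold change 0.22, edgeR adjusted p = 0.119). *Cdh5* had 7175 to 8826 and 7980 to 9821 (log2 fold change 0.16, edgeR adjusted p = 0.217). *Cldn5*, a claudin of tight junctions, was more scattered, with 703 to 1309 and 932 to 1435 (log2 fold change 0.18, SE 0.17), and its groups overlapped.

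On the endothelial surface, *Emcn*, a sialomucin of capillaries and veins, had 1133 to 1469 and 1381 to 1841 normalized counts (log2 fold change 0.25, edgeR adjusted p = 0.164). *Clec14a*, the lectin that MMRN2 binds, had 700 to 1073 and 887 to 1035 (log2 fold change 0.16, edgeR adjusted p = 0.417), so that its MLPKO-cRADKO range lay inside that of MLPKO. *Egfl7*, a secreted matrix protein, had 1307 to 1700 and 1493 to 1797 normalized counts (log2 fold change 0.19, edgeR adjusted p = 0.21). *Ly6c1*, a surface protein of capillary endothelium, had 2831 to 3697 and 3462 to 4060 (log2 fold change 0.24, edgeR adjusted p = 0.118), and is uncertain because it has a near-identical neighbour gene in *Ly6c2* (21.4 to 68.5 normalized counts). None of these genes passed the edgeR threshold. *Plvap*, which forms the diaphragms of fenestrated and endocardial endothelium, had the lowest log2 fold change of the 35 genes at −0.45 (SE 0.23, edgeR adjusted p = 0.294). It had 537, 801, 395, 356 and 712 normalized counts in MLPKO and 433, 348, 288, 451 and 530 in MLPKO-cRADKO, so that the MLPKO mice were the more scattered and the groups overlapped. *Vwf*, the clotting factor stored in endothelial granules, had 1568, 3364, 2920, 3534 and 2911 normalized counts in MLPKO and 2284, 1787, 2449, 2788 and 3738 in MLPKO-cRADKO. The log2 fold change of *Vwf* was −0.13 (SE 0.22, edgeR adjusted p = 0.787), and in each group its highest mouse had more than 1.5 times the count of its lowest.

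Among the 6 transcription factors, 5 had a positive log2 fold change (median 0.21) and none was called by edgeR. *Sox7*, a SOXF factor, had 681, 671, 954, 794 and 758 normalized counts in MLPKO and 840, 1133, 1073, 829 and 986 in MLPKO-cRADKO. This gave the second highest log2 fold change of the 35 genes, 0.33 (SE 0.12, edgeR adjusted p = 0.126), and the groups overlapped through MLPKO mouse 3. *Erg*, an ETS factor that holds endothelial identity, had 764 to 1028 normalized counts in MLPKO and 966 to 1251 in MLPKO-cRADKO (log2 fold change 0.30, edgeR adjusted p = 0.0926), and it passed in DESeq2 (adjusted p = 0.0456). The other SOXF factors were less even between mice. *Sox18* had 1248 to 2287 normalized counts in MLPKO and 1647 to 2717 in MLPKO-cRADKO (log2 fold change 0.21, SE 0.17). *Sox17* had 184 to 516 and 358 to 417 (log2 fold change 0.15, SE 0.21), so that the whole MLPKO-cRADKO range lay inside that of MLPKO. *Tal1*, a factor shared with blood cells, had 158 to 212 and 181 to 243 (log2 fold change 0.22, SE 0.12). *Prox1*, which sets lymphatic identity and is also made by cardiomyocytes, had 5259, 3895, 3209, 3814 and 3885 normalized counts in MLPKO and 4045, 3303, 3378, 4444 and 4237 in MLPKO-cRADKO. With a log2 fold change of −0.05 (SE 0.13, edgeR adjusted p = 0.868) it was the third lowest of the 35.

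In the group of transport and metabolism, 4 of 5 genes had a positive log2 fold change (median 0.10). *Fabp4* had 11146, 13277, 12656, 11049 and 10959 normalized counts in MLPKO and 15251, 12944, 16225, 14760 and 13078 in MLPKO-cRADKO. Its log2 fold change was 0.29 (SE 0.08, edgeR adjusted p = 0.076, DESeq2 adjusted p = 0.0184). *Fabp4* is also a gene of fat cells, and the 5 adipocyte markers summed to 28.3 CPM in MLPKO-cRADKO mouse 3, against 0 to 0.353 in the other 9 mice. With any 1 mouse left out the log2 fold change of *Fabp4* lay between 0.25 and 0.34. *Nos3*, the nitric oxide synthase of endothelium, had 531 to 754 normalized counts in MLPKO and 672 to 886 in MLPKO-cRADKO (log2 fold change 0.22, edgeR adjusted p = 0.246). The remaining genes of the group were close to 0. *Rgcc*, a cell cycle regulator enriched in capillaries, had 674 to 917 and 768 to 1068 normalized counts (log2 fold change 0.10). *Aqp1* had 8932 to 14747 and 11794 to 13528 (log2 fold change 0.01), and *Gpihbp1*, which carries lipoprotein lipase across the capillary wall, had 1636 to 2027 and 1618 to 1962 (log2 fold change −0.04). The capillary genes of lipid handling thus did not share 1 value, since *Fabp4* and *Gpihbp1* lay on either side of the median of the 35 genes.

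Of the Notch genes, the ligand *Dll4* had 833 to 1010 normalized counts in MLPKO and 857 to 1070 in MLPKO-cRADKO (log2 fold change 0.07, SE 0.08), and the receptor *Notch4* had 1523 to 1991 and 1641 to 2212 (log2 fold change 0.03, SE 0.09). The groups overlapped in both genes.

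The mice differed in how high the endothelial genes stood as a group. Relative to the mean of the 10 mice, the median log2 ratio over the 35 genes was −0.22, 0.00, 0.03, −0.10 and −0.11 in MLPKO mice 1 to 5 and 0.01, 0.04, 0.19, 0.08 and 0.08 in MLPKO-cRADKO mice 1 to 5. The groups overlapped here, since MLPKO mouse 3 lay above MLPKO-cRADKO mouse 1. MLPKO-cRADKO mouse 3 had the highest count of the 10 mice in 14 of the 35 genes, and MLPKO mouse 1 the lowest in 13. The coefficient of variation over 5 mice had a median of 11.4% in MLPKO and 9.73% in MLPKO-cRADKO, and it was the larger in MLPKO in 21 genes. *Sox17* (35.2% against 6.64%) and *Eng* (24.3% against 1.5%) were far more scattered in MLPKO.

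**Figure D3:**
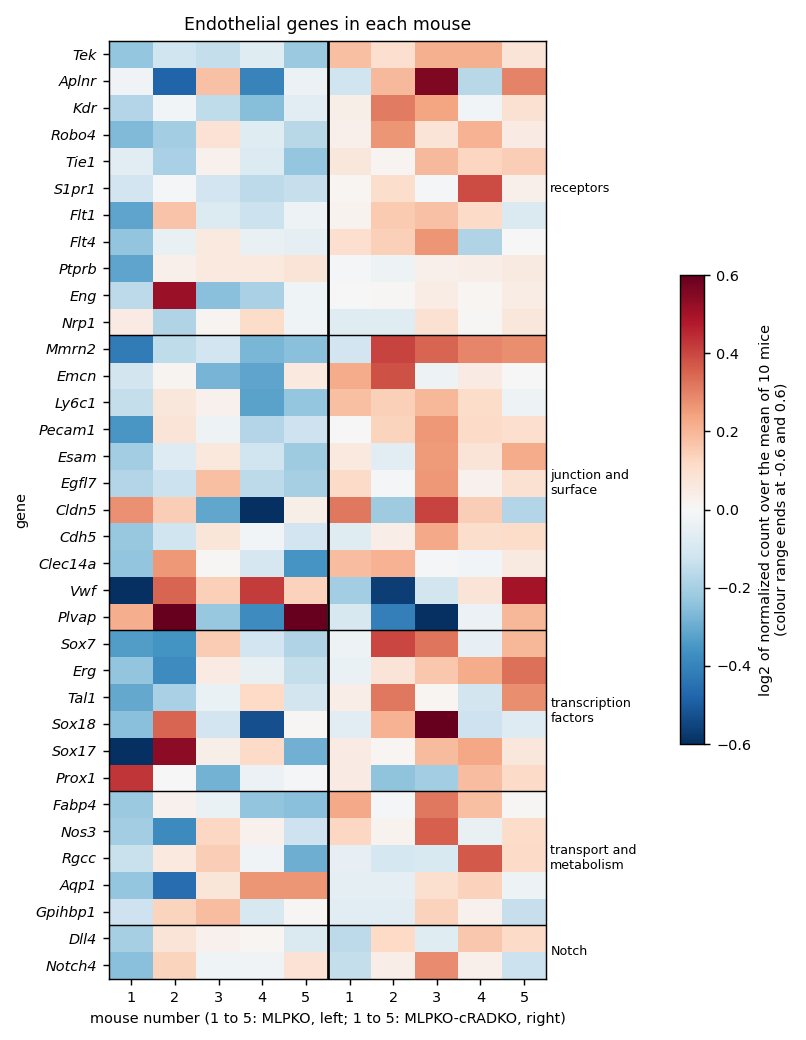
Log2 ratio of the normalized count to the mean of the 10 mice for each endothelial gene (rows, by role) and mouse (columns, MLPKO 1 to 5 left of the line and MLPKO-cRADKO 1 to 5 right of it), blue below and red above that mean. Most rows turn from blue to red across the line, MLPKO mouse 1 is low in most rows, and MLPKO-cRADKO mouse 3 has the highest count in 14 of them.

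To see which genes departed from the others, each value was also set against the median of the 35 genes in the same mouse, as a description without a test. On this scale, which centres the 35 genes by construction, 29 of 35 genes differed between the groups by at most 0.15 on the log2 scale. Groups that did not overlap were found in 2 of the 35, where 0.424% of all genes were higher without overlap on this scale, 10.5% lower and 10.9% either. As the 35 genes stood higher in MLPKO-cRADKO, the scale moves every gene down in that group, which raises the share of lower genes. *Mmrn2* had a difference of 0.32, as it lay between −0.20 and −0.14 in the 5 MLPKO mice and at −0.13, 0.36, 0.16, 0.21 and 0.20 in the MLPKO-cRADKO mice. *Gpihbp1* was the other gene without overlap, at 0.00 to 0.16 in MLPKO and −0.22 to −0.05 in MLPKO-cRADKO, a difference of −0.20. *Tek* differed by 0.15 and its groups overlapped, and *Plvap* differed by −0.57 with the widest spread.

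The promoters of *Tek* and *Kdr*, receptors without overlap between the groups, are shown because they hold ETS letters, and ETS factors are known to act on endothelial promoters. *S1pr1*, the third receptor without overlap, held neither form and is not shown. Each is the 250 bases before the start of the canonical transcript in GRCm39 (GENCODE M39), 5′ to 3′ on the strand of the gene, and capitals mark the ETS letters CAGGAA or CCGGAA on either strand (TTCCGG where CCGGAA lies on the reverse strand). *Tek* lies on the plus strand (chr4:94627041-94627290) and *Kdr* on the minus strand (chr5:76139119-76139368). The annotated *Kdr* gene runs to base 76139884, so that the *Kdr* window lies inside it and another annotated transcript starts further upstream.
Tek: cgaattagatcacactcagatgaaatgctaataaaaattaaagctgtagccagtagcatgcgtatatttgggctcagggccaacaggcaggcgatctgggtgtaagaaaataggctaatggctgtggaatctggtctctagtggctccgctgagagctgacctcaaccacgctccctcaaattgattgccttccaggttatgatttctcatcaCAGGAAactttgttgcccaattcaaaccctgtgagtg
Kdr: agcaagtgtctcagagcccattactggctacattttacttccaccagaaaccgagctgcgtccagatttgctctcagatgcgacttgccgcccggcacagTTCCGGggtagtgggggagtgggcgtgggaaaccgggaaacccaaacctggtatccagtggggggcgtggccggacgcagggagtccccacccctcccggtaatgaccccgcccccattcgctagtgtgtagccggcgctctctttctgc
The letters CAGGAA stood 37 to 32 bases before the start of *Tek*. *Kdr* held CCGGAA on the reverse strand, 150 to 145 bases before the start. Over the 35 genes, CAGGAA was found on either strand in 16 windows (45.7%), against 23.3% of 13416 genes with such a window. CCGGAA was found in 1 (2.86%) against 16.7%, so that 17 windows (48.6%) held either form, against 36.5%. The SOX letters AACAAT were found in 6 windows (17.1%) against 6.7%, and the GATA letters AGATAA in 3 (8.57%) against 7.25%. These are matches of letters and not measured binding.

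Genes that act on or in endothelial cells beside the 35 were read from a list of 79 vascular ligands, receptors, signal transducers and targets, of which 75 were tested. Of these, 57 had a positive and 18 a negative log2 fold change (median 0.15), 3 were called higher by edgeR, where 0.944% of all genes were, and none lower. DESeq2 called 8 higher and 2 lower, where it called 3.81% of all genes higher, 5.84% lower and 9.65% in either direction. The 3 called by edgeR are transducers or targets. In that group DESeq2 called these 3 as well, with *Klf4* and *Cav1* higher (adjusted p = 0.0142 and 0.0248) and *Mef2c* lower (adjusted p = 0.0399). *Rcan1* had the lowest log2 fold change of the 75 genes (−1.23, SE 0.40, edgeR adjusted p = 0.106), and its groups overlapped. *Thbd*, the thrombin receptor thrombomodulin that keeps the endothelial surface free of clots, had 2076, 2307, 2347, 2163 and 2121 normalized counts in MLPKO and 3053, 2957, 3146, 2636 and 2645 in MLPKO-cRADKO. The groups of *Thbd* did not overlap and it rose by a log2 fold change of 0.39 (SE 0.07, edgeR adjusted p = 0.0196). *Ets1*, an ETS factor of endothelium and lymphocytes, rose by 0.33 (SE 0.07, edgeR adjusted p = 0.0326), from 2502 to 2896 normalized counts in MLPKO to between 3131 and 3899 in MLPKO-cRADKO. *Foxo1*, a factor that holds endothelial cells at rest and is also active in cardiomyocytes, rose by 0.28 (SE 0.06, edgeR adjusted p = 0.0389), from 996 to 1095 normalized counts to between 1158 and 1394. With any 1 mouse left out the log2 fold changes of the 3 genes stayed at 0.26 or more, but calls were lost. *Thbd* lost its call without MLPKO mouse 5 (edgeR adjusted p = 0.0551). *Ets1* lost it without MLPKO mouse 1 or 5 or MLPKO-cRADKO mouse 2, 3 or 5 (edgeR adjusted p up to 0.0794), and *Foxo1* kept it only without MLPKO mouse 4 or MLPKO-cRADKO mouse 2 (edgeR adjusted p up to 0.0906 without another).

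Of the 23 ligands, 19 were tested, 13 positive and 6 negative, and none was called by edgeR. DESeq2 called 3, *Slit3* and *Apln* higher and *Sema3c* lower (adjusted p = 0.00871, 0.00655 and 0.00907). *Slit3*, a guidance ligand of the ROBO receptors, had no overlap between the groups (494 to 629 against 632 to 784 normalized counts, log2 fold change 0.35, edgeR adjusted p = 0.0544). *Apln*, the ligand of APLNR, had 161 to 428 normalized counts in MLPKO and 353 to 666 in MLPKO-cRADKO (log2 fold change 0.97, SE 0.27, edgeR adjusted p = 0.0686), and *Sema3c*, a semaphorin, had 955 to 1709 and 674 to 1032 (log2 fold change −0.56, edgeR adjusted p = 0.0659). *Vegfa*, the ligand of KDR, had a log2 fold change of 0.14, and the TEK ligands *Angpt1* and *Angpt2* had −0.16 and 0.14, none of them called. Of the 17 other receptors 15 were positive and none was called by edgeR, while DESeq2 called *Nrp2* higher (adjusted p = 0.018). By edgeR, *Nrp2* (0.36, edgeR adjusted p = 0.069), *Plxnd1* (0.33, edgeR adjusted p = 0.115) and *S1pr3* (0.29, edgeR adjusted p = 0.141) had the smallest p.

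**Figure D4:**
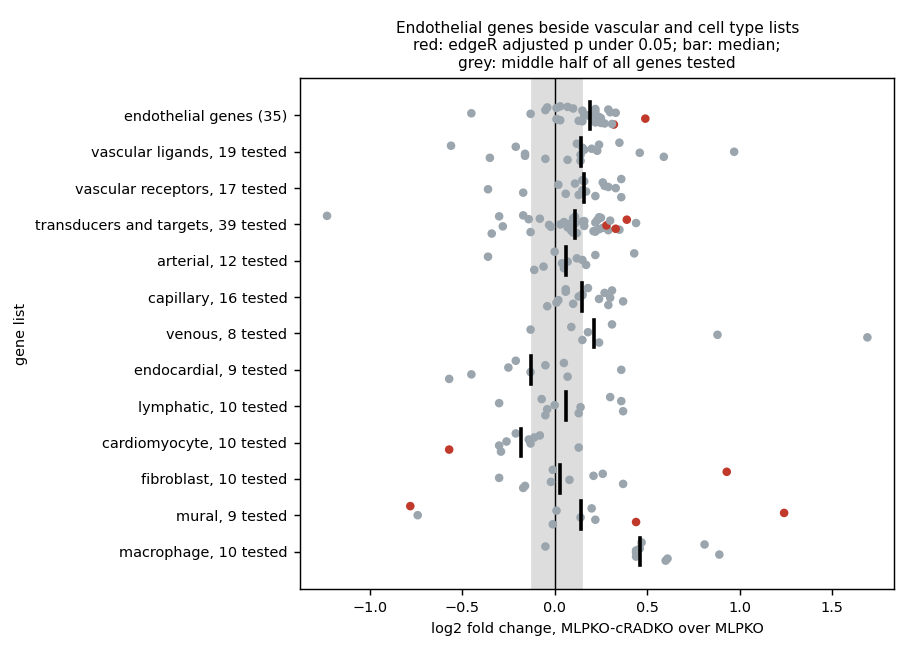
Log2 fold change (MLPKO-cRADKO over MLPKO) of each tested gene in the endothelial list, in the lists of vascular ligands, receptors and transducers, in lists for endothelial subtypes and in lists for other cell types, with a black bar at the median and red for genes called by edgeR. The endothelial median is 0.19, the cardiomyocyte median −0.18 and the macrophage median 0.46, and the grey band spans the quartiles of all genes.

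The lists for kinds of endothelium, which share some genes with the 35, held no gene called by edgeR. DESeq2 called 4 of their genes, all higher, where it called 3.81% of all genes higher. These were *Kdr* and *Fabp4*, which are among the 35, *Sele* (adjusted p = 0.0354) and *Nrp2*. Capillary genes were positive in 15 of 16 (median 0.15), with *Kdr*, *Fabp4* and *Fabp5* (0.31, edgeR adjusted p = 0.108) having the smallest p. Without the genes that are among the 35 they were positive in 10 of 10 (median 0.15). Of these, *Lpl* (371 CPM per kilobase) and *Cd36* (139) had higher levels than any of the 35 genes. Which cells made them was not tested. Venous genes were positive in 7 of 8 tested (median 0.21), among them the adhesion molecules *Sele* (0.88, edgeR adjusted p = 0.105) and *Selp* (1.69, edgeR adjusted p = 0.155, with only 1 to 47 raw counts) and the ephrin receptor *Ephb4* (0.15). Arterial genes were positive in 8 of 12 (median 0.06), with *Mecom* (0.22), *Stmn2* (0.43) and *Efnb2* (0.17) first by p. Endocardial genes were positive in 3 and negative in 6 of 9 tested (median −0.13), and without *Plvap* and *Vwf*, which are among the 35, in 3 and 4 (median −0.05), with *Npr3* (−0.57, edgeR adjusted p = 0.172), *Plvap* and *Cytl1* (0.36) first. *Npr3* had 3893 normalized counts in MLPKO mouse 2 against 1576 to 2131 in the other 4, so that this mouse was high in endocardial *Npr3* and *Plvap* as in *Eng*. Lymphatic genes were positive in 5 and negative in 5 of 10 (median 0.06), with *Nrp2*, *Lyve1* (0.37) and *Flt4* first. Differences between these lists were not tested.

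Marker genes of the other cells of the ventricle were read beside the endothelial genes. Summed over the 35 genes, the level was 2572 to 2941 CPM in MLPKO and 2985 to 3309 in MLPKO-cRADKO, without overlap. This sum gives most weight to the genes with the most counts, such as *Aqp1*, *Fabp4* and *Kdr*. The median log2 ratio over the 35 genes did overlap, with 0.03 in MLPKO mouse 3 and 0.01 in MLPKO-cRADKO mouse 1. Cardiomyocyte markers had a negative log2 fold change in 9 of 10 (median −0.18), with *Tnnt2*, cardiac troponin T, called lower (−0.57, edgeR adjusted p = 0.0185, and 0.059 without MLPKO-cRADKO mouse 5). They summed to 68211 to 79207 CPM in MLPKO and 53816 to 65676 in MLPKO-cRADKO, also without overlap. DESeq2 called *Tnnt2* and *Myh6* lower (adjusted p = 1.03e-06 and 0.0193), where it called 5.84% of all genes lower. Fewer cardiomyocytes and less RNA of these markers per cardiomyocyte cannot be told apart. The part of the lower cardiomyocyte level in the higher endothelial level was not tested.

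Macrophage markers were positive in 9 of 10 (median 0.46) and none was called by edgeR. DESeq2 called 4 of them higher, where it called 3.81% of all genes higher. By edgeR, *Adgre1* (0.60, edgeR adjusted p = 0.0532), *Lyz2* (0.81) and *Csf1r* (0.44) were first by p, and these 3 are among the 4 that DESeq2 called (adjusted p = 0.00434, 0.048 and 0.033). They summed to 187 to 268 and 222 to 478 CPM, highest in MLPKO-cRADKO mouse 3, the mouse in which the endothelial genes were highest as well. Fibroblast markers were positive in 5 of 10 (median 0.03; 2449 to 3253 and 2451 to 3695 CPM), and *Dpt*, a matrix protein, was called higher (0.93, edgeR adjusted p = 0.00665). Markers of mural cells, the pericytes and smooth muscle around vessels, were positive in 6 of 9 tested. *Rgs5*, of pericytes, was called higher (0.44, edgeR adjusted p = 0.0319), as was *Acta2*, of smooth muscle (1.24, edgeR adjusted p = 0.0461), while *Des*, which cardiomyocytes make too, was called lower (−0.78, edgeR adjusted p = 0.0247). With 1 mouse left out, *Rgs5* kept its call only without MLPKO mouse 2 or 4 (edgeR adjusted p up to 0.0764 without another). *Acta2* lost its call without MLPKO mouse 1 or 5 or MLPKO-cRADKO mouse 1, 2, 3 or 4 (edgeR adjusted p up to 0.0963), and also in limma-voom (0.0516), with robust dispersion (0.0665) and without MLPKO mouse 2 and MLPKO-cRADKO mouse 3 together (0.0761). *Des* lost its call without MLPKO mouse 1 or 5 or MLPKO-cRADKO mouse 2, 3, 4 or 5 (edgeR adjusted p up to 0.0719). The mural sum, which *Des* dominates, was 3852 to 6103 CPM in MLPKO and 3030 to 3555 in MLPKO-cRADKO. Without *Des*, a step added after its values were seen, the sum of the other 9 mural markers went the opposite way. It was 881 to 1105 CPM in MLPKO and 1126 to 1292 in MLPKO-cRADKO, also without overlap. Most of this rise lay in *Rgs5* (mean 13487 normalized counts in MLPKO and 18291 in MLPKO-cRADKO) and *Acta2* (2711 and 6394). Of the 8 tested without *Des*, 6 were positive and 2 negative, so that the 9 markers did not rise together.

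Red cell markers summed to 288 to 2798 and 409 to 1978 CPM and were called in neither direction. *Hbb-bs*, a haemoglobin chain, had its highest value in MLPKO mouse 2 (53943 normalized counts), and *Hbb-bt* and *Alas2* were also highest in that mouse. Of 5 platelet markers 3 were tested (*Pf4*, *Itga2b* and *Ppbp*), all positive and none called by edgeR, while DESeq2 called *Pf4* higher (adjusted p = 0.0316), and *Gp1bb* had at most 3 counts in every mouse. *Pf4* did not follow the other platelet genes within MLPKO. *Itga2b* (95.9 normalized counts) and *Ppbp* (62.2) were highest in mouse 2, where *Pf4* was lowest (179). Within MLPKO, *Pf4* was highest in mouse 4 (332), as were the macrophage markers *Csf1r* (1541), *Lyz2* (4105), *Itgam*, *C1qa* and *Mrc1*. The macrophage markers *Cd68*, *C1qb*, *Cx3cr1* and *Fcgr1* were highest in MLPKO mouse 1 instead, and *Adgre1* in MLPKO mouse 2. None of the 5 adipocyte markers passed the filter. The part of these cells in the endothelial values was not tested. Without MLPKO mouse 2 and MLPKO-cRADKO mouse 3, the mice with the most red cell and the most fat and macrophage RNA in their groups, the median log2 fold change of the 35 genes was 0.18 and *Tek* alone was called.

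**Figure D5:**
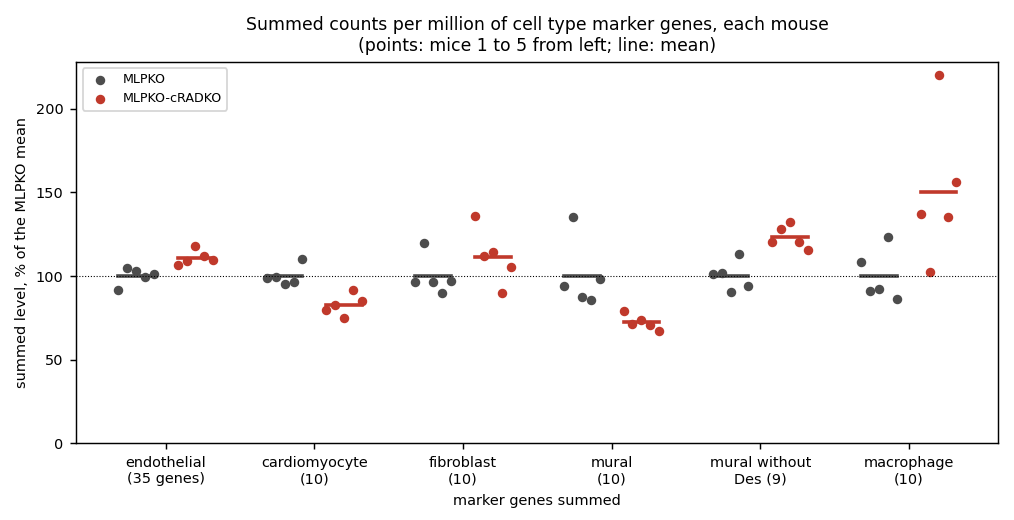
Summed CPM of the endothelial genes and of marker genes for 4 other cell types in each mouse, the mural markers also without *Des*, as a percentage of the MLPKO mean (linear axis from 0), with a line at the mean of each group. The endothelial sums of MLPKO-cRADKO mice lie above all MLPKO mice and the cardiomyocyte and mural sums below them. The mural sums without *Des* lie above, mostly through *Rgs5* and *Acta2*, while the fibroblast and macrophage sums overlap.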

How the data were processed

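RNA of the ventricle was sequenced from 5 MLPKO and 5 MLPKO-cRADKO mice. The authors used FastQC, aligned with STAR on GRCm39 and counted with featureCounts (versions and settings for strand and read pairs are not given in the sources used here) and deposited raw counts, without normalization. Counts of 1 to 20 were even in 73.7% to 80.3% of cases per library. Even values in excess are what counting both mates of a pair gives, so that printed counts may exceed the number of fragments, and this could not be settled from counts per gene. The table held 60676 rows, of which 3491 were blank in every mouse and were left out, and GENCODE M39 named 56629 of the other 57185.

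The filter of the study was used: over 10 counts in 6 or more of the 10 mice, and no Gm or Rik names, leaving 13453 genes. Counts were scaled by TMM and the groups compared in edgeR 4.0.16 (quasi-likelihood test, R 4.3.3), with Benjamini-Hochberg adjustment, fitted on all 13453 genes and tested on simulated data first. The authors used DESeq2 (1.42.0 here, an alternative). Other alternatives were limma-voom (limma 3.58.1), RLE, upper quartile or no scaling beyond totals, other filters, robust dispersion, the mouse number as a block, and leaving out each mouse. Leaving out MLPKO mouse 2 with MLPKO-cRADKO mouse 3 was added after seeing the data. The p-values measure the spread between mice.

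The endothelial genes and the lists were chosen with earlier results of these data known. All 35 are named. Full statistics are given for those called, those without overlap and the 3 highest and 3 lowest log2 fold changes, and for the lists the genes called or else the 3 smallest p. *Vegfa*, *Angpt1*, *Angpt2*, *Sncg* and the genes compared on the scale of the median gene were named after their values were seen. This also holds for *Klf4*, *Cav1*, *Mef2c*, *Rcan1*, *Myh6*, *Lpl*, *Cd36* and the macrophage markers other than *Adgre1*, *Lyz2* and *Csf1r*. Of the 35, 5 have exons on another coding gene, all on the opposite strand (*Mmrn2* with *Sncg*, *Egfl7* with *Agpat2*, *Plvap* with *Gtpbp3*, *Eng* with *Fpgs*, *Nos3* with *Atg9b*). Figures were drawn with matplotlib 3.10.9. The promoter sequence of 1 gene is not reported here.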

Additional observations from a re-analysis of the deposited data

Results flagged for a closer look

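In groups of 5 mice, a mouse was marked where its gap to the next mouse was more than 0.71 of the range of the group (Dixon), which chance gives in about 1 of 20 groups. This was so in 6 of 70 groups of the endothelial genes. In MLPKO, *Eng* was high in mouse 2 (11582 normalized counts against 6801 to 7967 in the others), *Egfl7* was high in mouse 3 (1700 against 1307 to 1375), *S1pr1* was high in mouse 2 (2134 against 1928 to 1984) and *Ptprb* was low in mouse 1 (6219 against 7888 to 8149). In MLPKO-cRADKO, *S1pr1* was high in mouse 4 (2823 against 2141 to 2312) and *Mmrn2* was low in mouse 1 (2607 against 3424 to 3729).

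Among the list genes named by the rule above, 7 of 66 groups held such a mouse. MLPKO mouse 2 was the high mouse in 5 of them: *Npr3* (3893 against 1576 to 2131), *Alas2* (2209 against 241 to 764), *Hbb-bs* (53943 against 5612 to 16929), *Itga2b* (95.9 against 27.5 to 42.5) and *Ppbp* (62.2 against 17.0 to 21.0). *Pf4* was high in MLPKO mouse 4 (332 against 179 to 216) and *Des* was high in MLPKO-cRADKO mouse 1 (97426 against 77860 to 83055).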

How the results depend on the processing

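The median log2 fold change of the 35 genes lay between 0.15 and 0.24 under all alternatives, and that of all genes reached 0.07 with library totals only. The number of the 35 called higher was 2 by edgeR, 6 by DESeq2, 3 with library totals only (*Kdr* as well), 0 to 2 with 1 mouse left out (0 without MLPKO mouse 5) and 1 without MLPKO mouse 2 and MLPKO-cRADKO mouse 3. The 79 vascular genes gave 3 called higher by edgeR, 8 by DESeq2, 5 with upper quartile scaling, 5 with library totals only, 0 to 5 with 1 mouse left out and 1 without both mice, and 2 called lower by DESeq2 and 0 to 1 with 1 mouse left out. The mouse numbers belong to different animals and do not pair them (correlations of deviations −0.044 to 0.152, and 2 of 5 MLPKO mice correlated best with their own number). A replicate block left 2 of the 35 called, *Tek* and *Mmrn2*, and gave 281 calls over all genes against 369. With the block *Foxo1* had an edgeR adjusted p of 0.0724 and *Acta2* of 0.057. *Acta2* also lost its call in limma-voom (adjusted p = 0.0516) and with robust dispersion (0.0665).

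The direction of values near 0 and of red cell genes turned with 1 mouse left out, with log2 fold changes of −0.04 to 0.18 for *Eng*, −0.04 to 0.05 for *Ptprb*, −0.09 to 0.08 for *Aqp1*, −0.01 to 0.33 for *Sox17*, −0.08 to 0.00 for *Gpihbp1*, −0.11 to 0.07 for *Prox1*, −0.03 to 0.04 for *Nrp1*, −0.03 to 0.08 for *Notch4*, −0.11 to 0.99 for *Hbb-bt*, −0.23 to 0.86 for *Alas2* and −0.39 to 0.56 for *Hbb-bs*. It also turned with library totals only for *Gpihbp1* (0.02) and *Prox1* (0.01), without both mice for *Aqp1* (−0.10), *Nrp1* (−0.05) and *Hbb-bs* (0.31), and with the block for *Hbb-bs* (0.01). The cause was not tested.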
